A study of Mus musculus with 27 samples.

Results

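The homeobox genes outside the Hox clusters were followed through Gas41 knockdown and embryoid body (EB) formation in mouse embryonic stem cells (mESCs). The genes were taken by symbol from 19 families, Alx, Barhl, Dlx, Emx, En, Gbx, Irx, Isl, Lhx, Meis, Meox, Msx, Nkx, Onecut, Pax, Pbx, Prrx, Vax and the sine oculis family (Six2, Six4 and their relatives). This gave 77 genes of the 27080 listed in the 3 deposited tables, placed in 9 homeobox classes. Of the 77 genes, 74 were listed in the table of shGas41-1, 75 in that of shGas41-2 and 77 in that of the EBs.

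Homeobox genes encode transcription factors that bind DNA through a helix-turn-helix fold, the homeodomain. Most of them are silent or nearly so in pluripotent cells and are switched on in restricted territories of the embryo, where they set the identity of regions such as the midbrain, eye field, limb bud or somite. In mESCs many have CpG-rich promoters that carry both activating and repressive histone marks. A few members depart from this plan, since Pax1 and Pax9 keep the paired DNA-binding domain but have no homeodomain, and the Pbx and Meis proteins act as partners of Hox and other homeodomain proteins.

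All libraries came from J1 cells, an established mESC line grown without feeders on gelatin with leukemia inhibitory factor (LIF) and infected with shRNA viruses under puromycin selection. The knockdown arm held 3 libraries with the control vector (shCon), 3 with shGas41-1 and 2 with shGas41-2, where the knockdown libraries were harvested 8 days after infection and the harvest day of shCon was not given separately, and the shRNAs target Gas41 (gene symbol Yeats4), a reader of acetylated histones in the complexes that load the histone variant H2A.Z. The EB arm held 2 libraries of shCon cells at day 0, undifferentiated cells kept with LIF, and 2 at day 6, after aggregation in low-attachment plates without LIF. Every library, the day 6 EBs included, therefore carried an shRNA vector, and the labels do not say whether replicates were separate cultures, so p-values measure only the spread between these libraries. Libraries were bulk mRNA, in which fewer cells of a type and less RNA per cell cannot be told apart.

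Each library held between 59224537 and 81524773 reads counted over genes, and levels are CPM, a gene's reads scaled to that total. At this depth 3 counts correspond to 0.0368 to 0.0507 CPM, which is the limit below which a level of 0 cannot be read as absence, and such limits cover counting error only. Fold changes and adjusted p-values came from edgeR's quasi-likelihood test with Benjamini-Hochberg adjustment over all genes tested, and a gene was called changed at a log2 fold change of at least 1 in size and an adjusted p of at most 0.05. The 9 pluripotency markers summed to 6094.8 to 6540.9 CPM in shCon and 1319.7 to 1669.8 CPM at day 6. Fibroblast markers summed to no more than 13.9 CPM in any library, with Dcn and Lum at 0 in shCon, shGas41-2 and day 0.

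Yeats4, the targeted gene, was 63.2, 54.5 and 52.1 CPM in shCon, 3.50, 4.42 and 4.79 CPM with shGas41-1, and 8.68 and 7.68 CPM with shGas41-2. It fell by 3.66 on the log2 scale with shGas41-1 (SE 0.189, adjusted p = 3.75e-04 by edgeR) and by 2.71 with shGas41-2 (SE 0.135, adjusted p = 9.34e-04), and no knockdown library reached the lowest shCon library. Across EB formation Yeats4 read 43.6 and 45.8 CPM at day 0 and 46.1 and 50.2 CPM at day 6, a log2 difference of 0.19 (SE 0.0895, adjusted p = 0.105).

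Before any comparison, the members differed widely in level. A mean of 1 CPM or more was reached by 23 of the 77 genes in shCon, 25 with shGas41-1, 24 with shGas41-2, 24 at day 0 and 30 at day 6. Divided by exon length, the highest mean level in shCon was that of Gbx2, a factor that positions the midbrain-hindbrain boundary, at 24.1 ± 1.58 CPM per kb (SD, n = 3). Pbx2 followed at 10.7 ± 1.84, Nkx6-2 at 8.11 ± 1.78 and Six4 at 5.21 ± 0.0618 CPM per kb. The neighbours Pbx2 and Nkx6-2 lay within their combined spread, whereas Gbx2 stood apart. Of the exon bases of Gbx2, 32.4% lie under an annotated gene of the opposite strand, and of those of Nkx6-2 12.9% lie under Inpp5a. No strand setting was stated for the counting, so reads of each pair cannot be told apart.

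**Figure D1:**
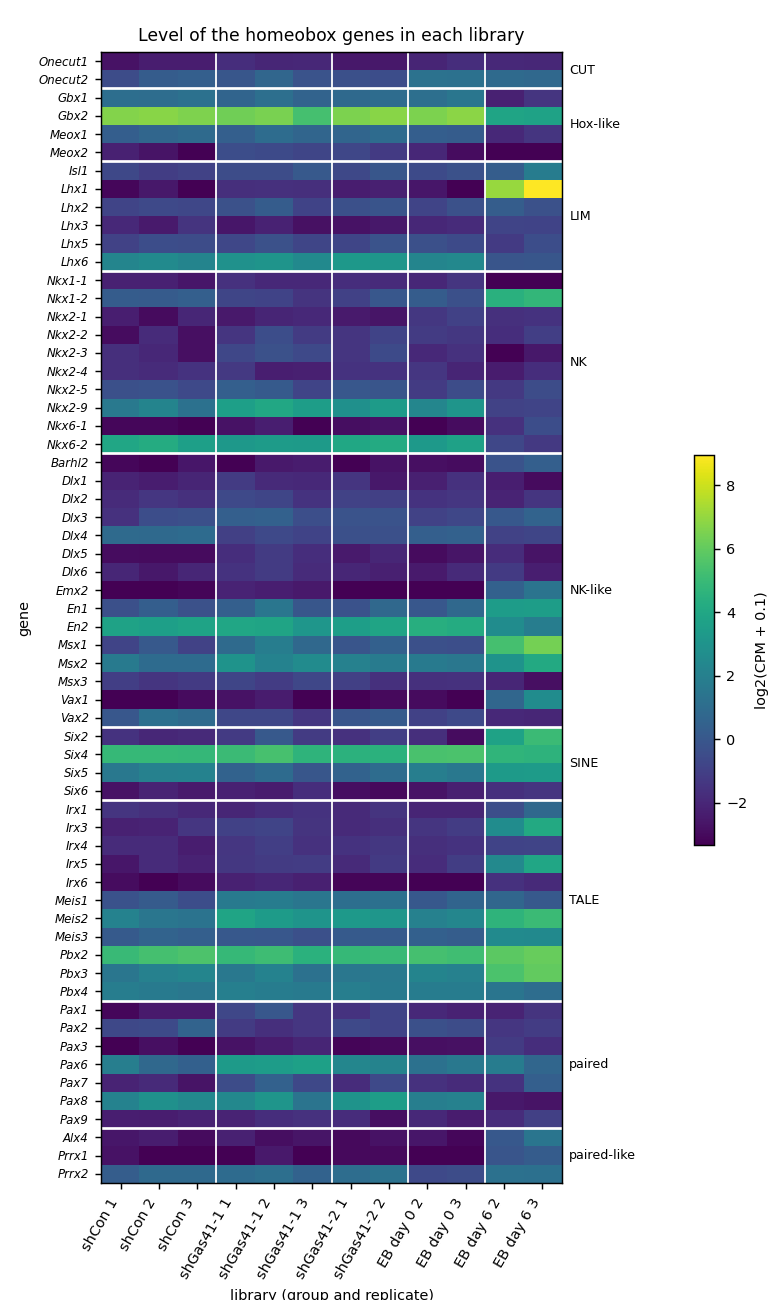
Level of the homeobox genes tested in at least 1 comparison and reported here (rows, grouped by class and separated by white lines) in each of the 12 libraries (columns), as log2(CPM + 0.1) on the colour scale. Pbx2 and Six4 are bright in every group, and the columns of EB day 6 differ from all the others, most of all at Lhx1.

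At the other end, 3 genes, Alx1 and Nkx2-6 among them, had no more than 3 counts in every library. Alx1, a paired-like gene of craniofacial mesenchyme, shares 98.9% of its exon bases with a second annotated gene of the same symbol and strand, so its level cannot be read from these tables. A further 9 genes, Barhl1, Emx1, Irx2, Lhx4, Lhx9, Nkx3-2, Onecut3, Pax4 and Pax5, passed the filter on low counts in none of the 3 comparisons. The other 65 genes passed it in at least 1 comparison, 48 of them in all 3.

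Promoter sequence is shown because developmental homeobox genes are known for CpG-rich promoters, for 4 genes that stand for the patterns described below. Meis1 and Nkx2-9 rose with both shRNAs, Six5 fell with both, and Lhx1 had the largest change at EB day 6. The sequences are RefSeq promoters of mouse build GRCm38.p6, from 250 bases before to 50 bases after the first listed transcription start, written 5′ to 3′ along the gene with every CG dinucleotide in capitals. In that order they lie at chr11:19018920-19019219 (minus strand), chr12:56613235-56613534 (minus), chr7:19094294-19094593 (plus) and chr11:84525485-84525784 (minus).
Meis1: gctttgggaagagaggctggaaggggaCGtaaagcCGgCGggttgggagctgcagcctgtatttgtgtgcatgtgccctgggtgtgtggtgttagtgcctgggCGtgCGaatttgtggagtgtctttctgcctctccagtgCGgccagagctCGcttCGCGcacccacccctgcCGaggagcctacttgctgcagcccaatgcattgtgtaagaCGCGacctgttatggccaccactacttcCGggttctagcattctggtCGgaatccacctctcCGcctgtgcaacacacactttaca
Nkx2-9: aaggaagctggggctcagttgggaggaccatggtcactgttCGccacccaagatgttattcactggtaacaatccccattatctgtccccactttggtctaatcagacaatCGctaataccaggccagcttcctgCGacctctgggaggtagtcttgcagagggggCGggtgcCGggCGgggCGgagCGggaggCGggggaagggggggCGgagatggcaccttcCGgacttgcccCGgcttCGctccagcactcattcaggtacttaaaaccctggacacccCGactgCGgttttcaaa
Six5: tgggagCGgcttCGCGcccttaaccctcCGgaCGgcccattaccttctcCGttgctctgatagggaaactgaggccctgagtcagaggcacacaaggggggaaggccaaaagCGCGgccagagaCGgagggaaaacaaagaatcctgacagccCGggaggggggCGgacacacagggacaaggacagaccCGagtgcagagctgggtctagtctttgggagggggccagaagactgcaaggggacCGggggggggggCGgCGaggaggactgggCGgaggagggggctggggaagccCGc
Lhx1: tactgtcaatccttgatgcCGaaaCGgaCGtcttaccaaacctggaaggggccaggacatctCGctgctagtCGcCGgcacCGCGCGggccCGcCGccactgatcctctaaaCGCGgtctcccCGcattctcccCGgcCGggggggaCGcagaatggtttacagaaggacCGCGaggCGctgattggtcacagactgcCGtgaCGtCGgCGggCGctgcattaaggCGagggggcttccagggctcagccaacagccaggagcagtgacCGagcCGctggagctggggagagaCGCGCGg
The Meis1 window holds 15 CG dinucleotides, that of Nkx2-9 15, that of Six5 17 and that of Lhx1 31. Among 17492 protein-coding genes with a promoter in the same table, 52.6% have fewer CG than Meis1 and Nkx2-9, 56.9% fewer than Six5 and 86.6% fewer than Lhx1.

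Of the 77 genes, 53 had a RefSeq promoter, with a median of 21 CG (range 6 to 42) in 300 bases, against 13 over the protein-coding genes. The homeodomain core TAATTA, which reads the same on both strands, occurred in 4 of the 53 windows, 7.55%, against 4.68% of the protein-coding windows. The Meis-type site TGACAG, searched on both strands, occurred in 9 windows, 17.0%, against 18.8%. A match is only a match of letters and marks no bound site. Promoters of the genes that rose with shGas41-1 had a median of 16 CG (12 genes), those of genes tested and not called with shGas41-1 a median of 27.5 (22 genes). The genes that fell with shGas41-1 had a median of 17 CG (3 genes). By the EB calls the median was 22 CG for genes that rose at EB day 6 (19 genes), 21.5 for those that fell (6 genes) and 17 for those not called (19 genes). Differences between these medians were not tested, and promoters of all genes were not split by call, so no pattern is read from them.

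With shGas41-1, 14 of the 53 homeobox genes tested rose and 5 fell. The genes that rose were Dlx5, Irx5, Lhx1, Meis1, Meis2, Meox2, Msx1, Msx2, Nkx2-2, Nkx2-3, Nkx2-9, Pax1, Pax6 and Pax7, and those that fell were Dlx4, Nkx1-2, Pax2, Six5 and Vax2. The rising share was 26.4% where 7.90% of all 18274 genes tested rose, and the falling share was 9.43% where 2.40% of all genes fell. Some of the genes that rose passed the filter on low counts only through shGas41-1. Among them were Dlx5, with 2 counts in each shCon library, and Lhx1, with 1, 5 and 0. Such genes could be called only as risen, so the rising share depends in part on the filter. The median log2 fold change of the 53 genes was 0.62, against 0.02 over all genes tested, and 39 of the 53 values were above 0. DESeq2 called 13 of the 14 rises, all but Irx5, and all 5 falls.

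With shGas41-2, 5 of 51 genes tested rose, Meis1, Meis2, Meox2, Nkx2-9 and Pax1, and 2 fell, Dlx4 and Six5. The rising share was 9.80% beside 3.96% of all 18405 genes, and the falling share was 3.92% beside 0.869%. Meox2 and Pax1, low in shCon, passed the filter on low counts only through shGas41-2 and could be called only as risen. The median log2 fold change was 0.46, against -0.01 over all genes. Both knockdown comparisons used the same shCon libraries, so their values are given side by side and are not independent. The counts with shGas41-2 moved with single libraries, since 8 genes rose without shCon replicate 1, 2 without shGas41-2 replicate 1 and 1 without shGas41-2 replicate 2. The falls numbered 1 without shCon replicate 3 and 0 without shCon replicate 2 or either shGas41-2 library.

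The shRNAs were compared directly on all 19146 genes tested in the knockdown arm. None of the 57 homeobox genes tested differed, beside 0 (0%) of all genes. At an unadjusted p under 0.05 the edgeR test gave 9 homeobox genes and 1348 genes in all, and DESeq2 also called 0 homeobox genes. The largest difference was that of Pax6, 1.27 on the log2 scale higher with shGas41-1 (95% interval 0.414 to 2.12 from its standard error and degrees of freedom, adjusted p = 0.474), so differences between the shRNAs of that size could not be called with these libraries.

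**Figure D2:**
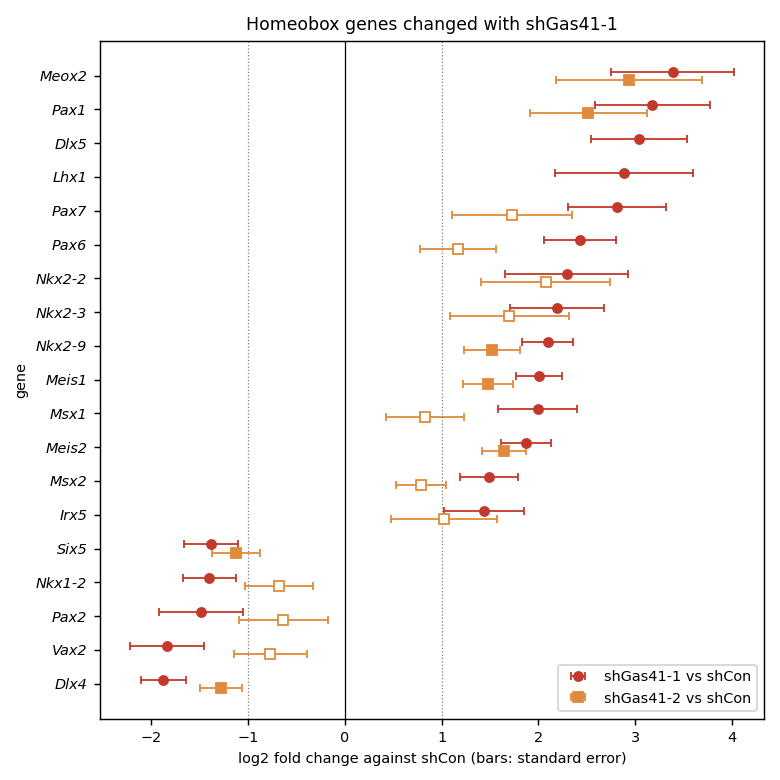
Log2 fold change against shCon (horizontal axis, with standard errors) of the 19 homeobox genes called with shGas41-1, for shGas41-1 (circles) and shGas41-2 (squares), with filled symbols for calls and dotted lines at 1 and -1. Meox2 has the highest and Dlx4 the lowest shGas41-1 value, and 7 genes have both symbols filled. Dlx5 and Lhx1 were not tested with shGas41-2.

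Among the TALE class, the Meis genes encode cofactors that bind beside Hox and Pbx proteins. Meis1 read 0.760, 1.05 and 0.635 CPM in shCon, 3.18, 3.42 and 2.73 CPM with shGas41-1, and 2.06 and 2.25 CPM with shGas41-2. All 5 knockdown libraries lay above all 3 shCon libraries. The log2 fold change was 2.00 with shGas41-1 (SE 0.240, adjusted p = 0.00267 by edgeR) and 1.48 with shGas41-2 (SE 0.261, adjusted p = 0.0151). The shGas41-2 call was lost without shGas41-2 replicate 1 (1.55, adjusted p = 0.0761) or replicate 2 (1.40, adjusted p = 0.113). Of the exon bases of Meis1, 12.1% lie under Gm16140 on the opposite strand.

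Meis2 read 4.22, 2.68 and 2.49 CPM in shCon, 14.1, 10.5 and 8.07 CPM with shGas41-1, and 9.87 and 8.56 CPM with shGas41-2. The lowest knockdown library thus lay above the highest shCon library. Its log2 fold change was 1.87 with shGas41-1 (SE 0.260, adjusted p = 0.00330) and 1.64 with shGas41-2 (SE 0.228, adjusted p = 0.00648), and it was the 1 riser with shGas41-2 that stayed called whichever library was left out. The third Meis gene, Meis3, had log2 differences of -0.42 and -0.17 and passed the test with neither shRNA. Of the other TALE genes tested, Irx5 was called with shGas41-1 alone (log2 1.43, SE 0.415, adjusted p = 0.0440), and that call was lost when any 1 of the 6 libraries was left out, with adjusted p up to 0.132. Irx5 read 0.293, 0.345 and 0.355 CPM with shGas41-1, between the 0.196 and 0.377 CPM of shCon cells at EB day 0. Pbx2, Pbx3 and Pbx4, partners of Meis proteins, lay between -0.34 and 0.22 on the log2 scale with shGas41-1.

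In the NK class, Nkx2-9, a gene of the ventral neural tube downstream of Sonic hedgehog, read 2.97, 4.51 and 2.32 CPM in shCon. It read 12.1, 16.3 and 11.4 CPM with shGas41-1 and 7.04 and 10.7 CPM with shGas41-2, so that neither knockdown group overlapped shCon. Undifferentiated shCon cells at EB day 0 averaged 6.68 CPM and overlapped shGas41-2 but not shGas41-1. The log2 fold change was 2.09 with shGas41-1 (SE 0.263, adjusted p = 0.00295) and 1.52 with shGas41-2 (SE 0.293, adjusted p = 0.0205), the latter lost without shGas41-2 replicate 2 (1.17, adjusted p = 0.147). Per exon length Nkx2-9 moved from 2.59 ± 0.891 CPM per kb in shCon, the seventh highest mean of the 77 genes, to 10.5 ± 2.12 with shGas41-1 (SD, n = 3 each), the second highest. Its neighbours within chr12:57632922-57813809 (mm9), Nkx2-1 and Pax9, were too low to be tested with either shRNA.

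Nkx2-2 and Nkx2-3, which pattern the ventral neural tube and the gut and spleen mesenchyme, rose with shGas41-1 by 2.29 and 2.19 on the log2 scale (adjusted p = 0.0380 and 0.0169 by edgeR). Neither exceeded 0.728 CPM in any knockdown library. In shCon cells at EB day 0 Nkx2-2 averaged 0.317 CPM, against 0.0876 CPM in shCon and 0.419 CPM with shGas41-1. With shGas41-2 their log2 differences were 2.08 and 1.70 (adjusted p = 0.0885 and 0.119). The shGas41-1 call of Nkx2-2 was lost without shCon replicate 1 or 3, or shGas41-1 replicate 1 or 2, with adjusted p between 0.0577 and 0.127, and that of Nkx2-3 without shCon replicate 2 (2.31, adjusted p = 0.0591).

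Nkx1-2, a marker of the progenitors that build the posterior body axis, went the other way. It read 1.10, 1.04 and 1.23 CPM in shCon, 0.492, 0.447 and 0.263 CPM with shGas41-1, and 0.417 and 0.899 CPM with shGas41-2. At EB day 0 it averaged 0.885 CPM in undifferentiated control cells, which overlapped shGas41-2 but not shGas41-1. Every knockdown library was below every shCon library, and the log2 fold change was -1.40 with shGas41-1 (SE 0.275, adjusted p = 0.0110) and -0.69 with shGas41-2 (SE 0.352, adjusted p = 0.247). Of its exon bases 16.6% lie under Gm16764 on the opposite strand.

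Among the paired class, Pax1, a regulator of the sclerotome from which vertebrae form, was close to the counting limit in shCon, at 0.0169, 0.0865 and 0.0829 CPM. It read 0.506, 0.907 and 0.278 CPM with shGas41-1 and 0.245 and 0.462 CPM with shGas41-2, so all 5 knockdown libraries lay above shCon while the knockdown groups overlapped each other. The log2 fold change was 3.18 with shGas41-1 (SE 0.594, adjusted p = 0.00924) and 2.52 with shGas41-2 (SE 0.604, adjusted p = 0.0406). The shGas41-2 call was lost when shCon replicate 2 or 3, or either shGas41-2 library, was left out, with adjusted p from 0.0570 to 0.288.

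Pax6, a regulator of eye and forebrain, was the most abundant of the Pax genes that rose. It read 3.73, 1.67 and 1.26 CPM in shCon and 10.1, 11.0 and 12.5 CPM with shGas41-1, a log2 fold change of 2.43 (SE 0.374, adjusted p = 0.00451). With shGas41-2 it read 4.92 and 4.46 CPM, above all shCon libraries and below all shGas41-1 libraries, and the log2 difference of 1.17 did not pass the test (SE 0.396, adjusted p = 0.101). Of the exon bases of Pax6, 27.9% lie under Elp4 on the opposite strand. Pax7, a gene of the dorsal neural tube and muscle progenitors, rose by 2.81 with shGas41-1 (SE 0.506, adjusted p = 0.00798), from at most 0.173 CPM in shCon to at least 0.525 CPM.

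Pax2, an early regulator of kidney and optic stalk, read 0.523, 0.577 and 1.38 CPM in shCon, 0.346, 0.217 and 0.278 CPM with shGas41-1, and 0.564 and 0.449 CPM with shGas41-2. The shCon libraries were spread, with replicate 3 well above the others. The log2 fold change was -1.48 with shGas41-1 (SE 0.435, adjusted p = 0.0460) and -0.64 with shGas41-2 (SE 0.462, adjusted p = 0.406). Leaving out any library except shCon replicate 1 ended the shGas41-1 call, and without shCon replicate 3 the value was -0.91 (adjusted p = 0.162). Pax8, a relative of Pax2, differed by 0.04 with shGas41-1 (SE 0.365, adjusted p = 0.953).

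In the NK-like class, Msx1 and Msx2, targets of BMP signalling in limb and neural crest, rose with shGas41-1. Msx1 read 0.473, 0.966 and 0.428 CPM in shCon, 1.81, 3.63 and 1.67 CPM with shGas41-1, and 0.846 and 1.25 CPM with shGas41-2. The shGas41-1 libraries lay above shCon, while those of shGas41-2 overlapped it. Msx1 rose by 1.99 with shGas41-1 (SE 0.410, adjusted p = 0.0130, lost without shCon replicate 3 at 1.77 and 0.0508) and differed by 0.83 with shGas41-2 (adjusted p = 0.219). Msx2 rose by 1.49 with shGas41-1 (adjusted p = 0.0115, lost without shCon replicate 2 at 0.0545), with 0.79 for shGas41-2 (adjusted p = 0.0964). Msx3 had a log2 difference of 0.55 with shGas41-1 and did not pass (adjusted p = 0.242).

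The Dlx genes, which pattern branchial arches and forebrain, moved in both directions. Dlx4 read 1.82, 1.73 and 1.88 CPM in shCon, 0.399, 0.549 and 0.448 CPM with shGas41-1, and 0.699 and 0.711 CPM with shGas41-2, so the groups were well separated. It fell by 1.88 with shGas41-1 (SE 0.230, adjusted p = 0.00276) and by 1.28 with shGas41-2 (SE 0.218, adjusted p = 0.0136). The latter call was lost without shCon replicate 2 (adjusted p = 0.0516), shGas41-2 replicate 1 (0.108) or shGas41-2 replicate 2 (0.105). Dlx5 rose by 3.04 with shGas41-1 (SE 0.496, adjusted p = 0.00545), from at most 0.0338 CPM in shCon, below the counting limit, to between 0.200 and 0.332 CPM. Dlx1, Dlx2, Dlx3 and Dlx6 had log2 differences between 0.93 and 1.14 with shGas41-1, and none passed the test.

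Vax2, a gene of the ventral retina, read 0.895, 2.24 and 1.81 CPM in shCon, 0.519, 0.511 and 0.278 CPM with shGas41-1, and 0.834 and 0.998 CPM with shGas41-2. The shGas41-1 libraries lay below shCon, and shGas41-2 overlapped its lowest library. Undifferentiated shCon cells at EB day 0 averaged 0.485 CPM, near the shGas41-1 mean of 0.436 CPM. The difference between these control sets was not tested. Vax2 fell by 1.84 with shGas41-1 (SE 0.381, adjusted p = 0.0132, lost without shCon replicate 2 at 0.0541) and differed by -0.77 with shGas41-2 (SE 0.381, adjusted p = 0.231).

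Six5, a SINE-class gene next to the myotonic dystrophy kinase gene, read 2.94, 4.05 and 4.23 CPM in shCon. It read 1.33, 1.86 and 0.881 CPM with shGas41-1 and 1.34 and 1.90 CPM with shGas41-2, below shCon in all 5 libraries. The log2 fold change was -1.39 with shGas41-1 (SE 0.276, adjusted p = 0.0116) and -1.13 with shGas41-2 (SE 0.250, adjusted p = 0.0320). The shGas41-1 call was lost without shGas41-1 replicate 1 (-1.35, adjusted p = 0.0511), and the shGas41-2 call without shCon replicate 2 or 3 or either shGas41-2 library, with adjusted p from 0.0537 to 0.199. Its better expressed relative Six4, at 29.4, 29.6 and 28.9 CPM in shCon, read 32.9, 41.5 and 25.1 CPM with shGas41-1 (log2 0.25, adjusted p = 0.313) and 23.5 and 22.8 CPM with shGas41-2 (-0.26, adjusted p = 0.132).

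Of the Hox-like class, Meox2, a regulator of somite and muscle, read 0.118, 0.0577 and 0 CPM in shCon, 0.639, 0.575 and 0.494 CPM with shGas41-1, and 0.503 and 0.324 CPM with shGas41-2. Its log2 fold change was the largest of the 14 rises with shGas41-1, 3.39 (SE 0.634, adjusted p = 0.00928), and was 2.93 with shGas41-2 (SE 0.754, adjusted p = 0.0490). The shGas41-2 call was lost without shCon replicate 2 or either shGas41-2 library, with adjusted p from 0.127 to 0.281. Gbx2 read 102, 109 and 95.6 CPM in shCon, 77.8, 90.0 and 39.9 CPM with shGas41-1, and 92.98 and 108 CPM with shGas41-2, where shGas41-1 replicate 3 stood lowest. Its log2 differences of -0.50 (SE 0.241, adjusted p = 0.175) and 0.06 (SE 0.111, adjusted p = 0.766) did not pass.

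Lhx1, the LIM-class organizer gene of the node and kidney, read 0.0169, 0.0721 and 0 CPM in shCon and 0.213, 0.230 and 0.216 CPM with shGas41-1, so all shCon libraries lay below all shGas41-1 libraries. The rise of 2.88 (SE 0.710, adjusted p = 0.0249) was lost without shCon replicate 1 or 3 or shGas41-1 replicate 1, with adjusted p from 0.0576 to 0.0713. With shGas41-2 it read 0.0981 and 0.112 CPM and was too low to be tested. Emx2, a cortical NK-like gene, was also below the filter, with 23 counts in the 3 shGas41-1 libraries against 1 in shCon, a ratio of 21.2 with an exact 95% counting interval of 3.44 to 873. With shGas41-2, Emx2 had 0 counts in each library.

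**Figure D3:**
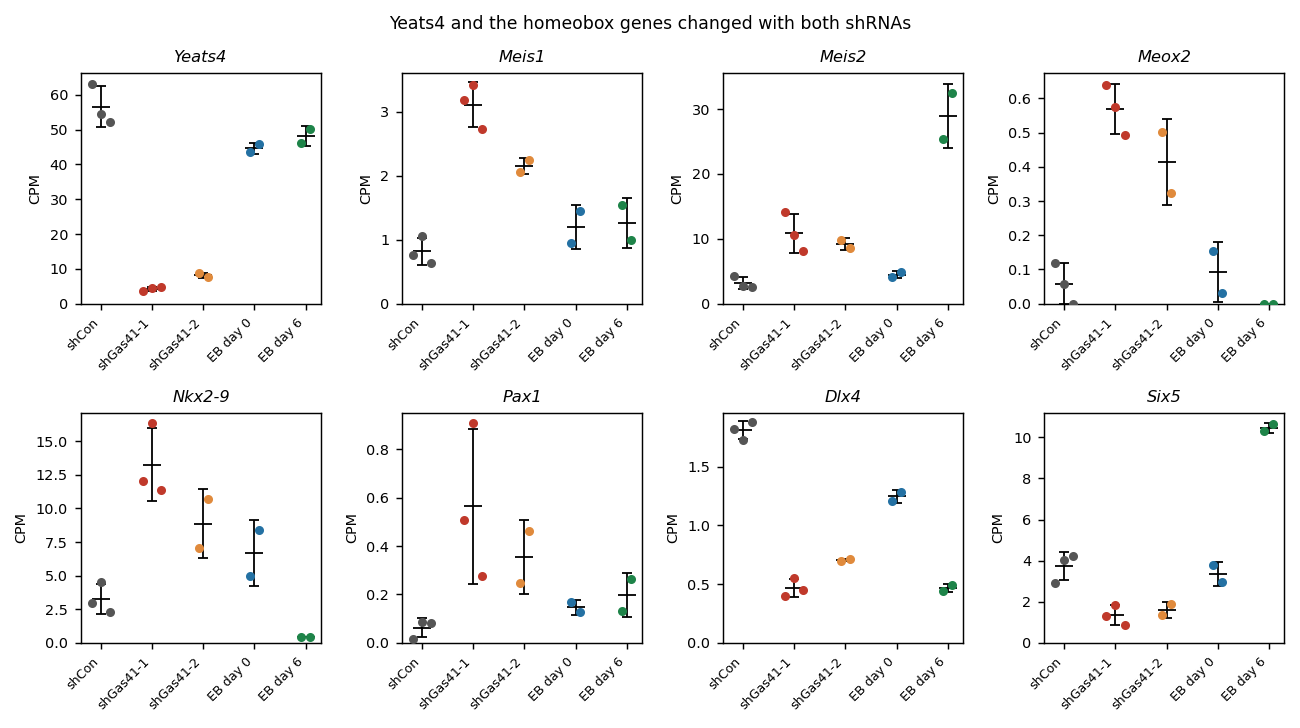
CPM of Yeats4 and of the 7 homeobox genes called in the same direction with both shRNAs, by group, with points for libraries, horizontal marks for means and bars for SD (n = 3, 3, 2, 2 and 2). Meis1, Meis2, Meox2, Nkx2-9 and Pax1 lie above shCon, and Dlx4 and Six5 below it, in all 5 knockdown libraries, and the EB groups show each gene's separate course.

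Markers of other cell states moved with the knockdown. The 3 2-cell-like markers found of the 6 listed, Zscan4c, Zscan4d and Zscan4f, summed to 29.0 to 245 CPM in shCon, 391 to 678 CPM with shGas41-1 and 220 to 544 CPM with shGas41-2, with none at 0. Of the 9 pluripotency markers, Esrrb and Klf4 fell with shGas41-1, and the summed level was 5535.2 to 6383.6 CPM there and 5968.9 to 6168.9 CPM with shGas41-2. The 6 trophoblast markers summed to 8.78 to 13.4 CPM in shCon and 7.34 to 13.4 CPM with shGas41-1, where Gata3 and Cdx2 rose and Eomes fell, and to 9.86 to 10.5 CPM with shGas41-2, where Gata3 rose. The 6 mesoderm markers summed to 8.95 to 13.8 CPM in shCon, 4.54 to 8.02 CPM with shGas41-1, where Eomes and Tbx6 fell, and to 7.45 to 7.69 CPM with shGas41-2. The 6 endoderm markers summed to 3.81 to 4.36 CPM in shCon, 4.94 to 7.06 CPM with shGas41-1, where Gata6 rose, and 5.00 to 5.02 CPM with shGas41-2. The part of these cells in the homeobox changes was not tested.

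Formation of EBs asked which of the genes move when the cells differentiate. Of 62 genes tested 28 rose, 45.2% beside 16.6% of all 18287 genes, and 11 fell, 17.7% beside 14.7%. Some of the genes that rose passed the filter on low counts only through day 6. Among them were Emx2, Irx6 and Prrx1, with 0 counts at day 0, and Vax1 with 2. Such genes could be called only as risen, and Nkx1-1, with 0 counts at day 6, only as fallen. The shares thus depend in part on the filter. The median log2 fold change was 0.95, against -0.00 over all genes tested. The summed level of the 77 genes was 292 and 315 CPM at day 0 and 634 and 1243 CPM at day 6. Of the day 6 sums, Lhx1 alone made up 135 and 495 CPM. The median level of the 77 genes was 0.252 and 0.282 CPM at day 0 and 0.444 and 0.494 CPM at day 6.

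The day 6 libraries differed from each other. Of the 28 genes that rose, 23 were higher in replicate 3 than in replicate 2, with a median ratio of 1.56, and 11 were at least 2 times higher, Alx4, Irx1, Irx3, Irx5, Isl1, Lhx1, Msx1, Msx2, Nkx6-1, Six2 and Vax1. Of the 11 genes that fell, 5 were higher in replicate 3. The same shares over all genes were not taken, so nothing particular to the homeobox genes is read from them. The 6 mesoderm markers rose with the EBs, from 7.87 to 8.68 CPM summed at day 0 to 1322 to 1833 CPM at day 6, the 6 endoderm markers from 3.17 to 4.61 CPM to 70.6 to 222 CPM with Afp at 0 in both groups, and the trophoblast markers from 8.12 to 8.55 CPM to 523 to 624 CPM. The 5 neural markers found of 6 summed to 263 to 286 CPM at day 0 and 194 to 198 CPM at day 6, where Neurog2 was at 0. Of the 3 neural markers tested at EB day 6, 1 rose, Nes, and 1 fell, Tubb3. Which of these cells held the homeobox transcripts was not tested. Without day 0 replicate 3, 15 genes rose and 6 fell, and 15 of the 28 rises and 7 of the 11 falls stayed called in every fit with 1 library left out that could be run.

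**Figure D4:**
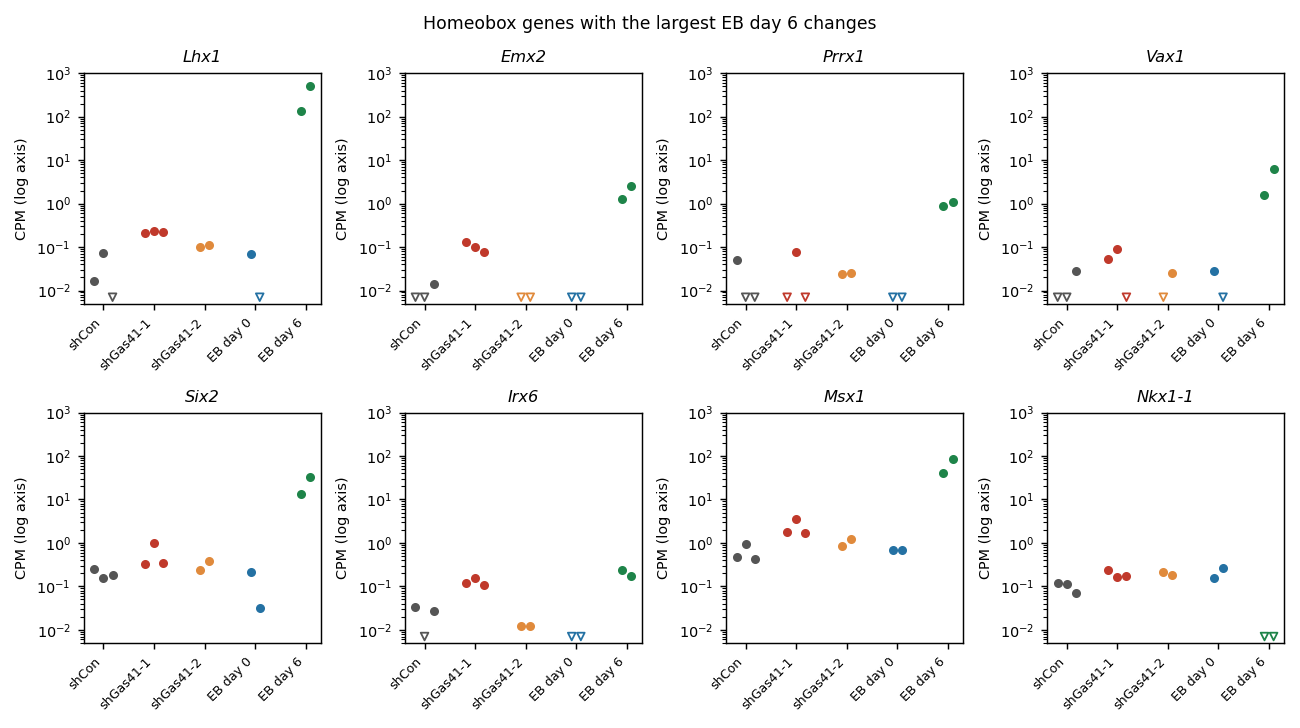
CPM on a log axis of the 8 homeobox genes with the largest called changes at EB day 6, by group, with 1 point for each library. Open triangles at the foot of the axis mark libraries with 0 counts. Lhx1, Emx2, Prrx1, Vax1, Six2, Irx6 and Msx1 are highest at day 6, and Nkx1-1 has 0 counts in both day 6 libraries.

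Lhx1 had the largest change. It read 0.0700 and 0 CPM at day 0 and 135 and 495 CPM at day 6, a log2 fold change of 13.08 (SE 1.10, adjusted p = 1.42e-04 by edgeR). The size of that change is loosely fixed, as it was 17.39 without day 0 replicate 2 and 11.84 without day 6 replicate 3. Per exon length it then had the highest mean of the 77 genes, 76.5 ± 61.8 CPM per kb (SD, n = 2), with Msx1 at 32.0 ± 16.2, and these means lie within their spread. Other LIM genes split, with Isl1, a gene of heart and motor neuron progenitors, and Lhx3 rising by 1.91 and 1.51 (adjusted p = 0.0238 and 0.0216). The Isl1 call was lost without either day 0 library or without day 6 replicate 3, and that of Lhx3 without any 1 of the 4 libraries and by DESeq2. Lhx6, a gene of forebrain interneurons, fell by 2.43 (SE 0.221, adjusted p = 1.95e-04).

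The counts by class at EB day 6 stand beside the 16.6% of all genes that rose and the 14.7% that fell, and no class was tested against other genes. Of the TALE class 8 of 12 genes tested rose and 0 fell, and 11 of the 12 log2 values were above 0. Pbx3 rose by 3.71 (SE 0.193, adjusted p = 2.50e-05) and Meis3 by 2.31 (SE 0.200, adjusted p = 1.60e-04). Meis2, called up with both shRNAs, read 4.12 and 4.82 CPM at day 0 and 25.5 and 32.5 CPM at day 6 (log2 2.78, SE 0.174, adjusted p = 4.74e-05). Pbx2 read 40.1 and 36.8 CPM at day 0 and 58.5 and 67.6 CPM at day 6, and its log2 difference of 0.80 passed the adjusted p (9.34e-04) but not the fold. Meis1, at 0.953 and 1.44 CPM against 1.54 and 0.989 CPM, overlapped between the days (log2 0.16, SE 0.352, adjusted p = 0.716).

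The Irx genes, which pattern neural and cardiac territories, lie in groups on chromosomes 8 and 13. All 3 genes of the chromosome 8 group (chr8:94322428-95204855, mm9) rose, Irx3 from 0.266 and 0.361 CPM to 6.24 and 17.4 CPM and Irx5 from 0.196 and 0.377 CPM to 5.34 and 15.4 CPM, with log2 fold changes of 5.32 and 5.28 (adjusted p = 4.45e-04 and 6.47e-04). Both calls were lost without day 0 replicate 3 (adjusted p = 0.0551 and 0.0563). Irx6 had 0 counts in both day 0 libraries and read 0.237 and 0.175 CPM at day 6, at least 9.25-fold higher against 3 counts over the day 0 group (adjusted p = 0.00498). On chromosome 13 Irx1 rose by 3.15 (SE 0.584, adjusted p = 0.00405, lost without day 0 replicate 3 at 0.0975), and Irx4 had a log2 difference of 1.08 that did not pass (adjusted p = 0.0578).

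Of the NK-like genes 7 of 13 tested rose and 3 fell. Msx1 read 0.700 and 0.675 CPM at day 0 and 39.7 and 84.0 CPM at day 6 (log2 6.58, SE 0.443, adjusted p = 6.17e-05), and Msx2 rose by 2.16 (SE 0.392, adjusted p = 0.00372, lost without day 0 replicate 3 at 0.120). The neighbours Vax1 and Emx2 (chr19:59240677-59539847, mm9), both genes of the forebrain, rose from almost nothing. Vax1 read 0.0280 and 0 CPM at day 0 and 1.58 and 6.25 CPM at day 6, a ratio of 266 with an exact 95% counting interval of 73.3 to 2203 (adjusted p = 0.00123, and 0.0749 without day 0 replicate 3). Emx2 was at 0 in both day 0 libraries and read 1.29 and 2.57 CPM at day 6, at least 87.2-fold higher (adjusted p = 6.09e-04).

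The Engrailed genes of the midbrain and hindbrain went apart at EB day 6. En1 read 0.897 and 1.69 CPM at day 0 and 10.8 and 11.3 CPM at day 6 (log2 3.18, SE 0.300, adjusted p = 2.26e-04), and En2 20.6 and 18.8 CPM against 6.11 and 3.59 CPM (log2 -1.94, SE 0.242, adjusted p = 7.58e-04, and 0.0502 without day 0 replicate 3). The adjacent Dlx3 and Dlx4 on chromosome 11 also went apart. Dlx3 rose by 1.39 (adjusted p = 0.0159), a call lost without either day 0 library or day 6 replicate 3, and Dlx4 read 1.20 and 1.29 CPM at day 0 and 0.444 and 0.494 CPM at day 6 (log2 -1.32, adjusted p = 0.0102, lost without either day 0 library at 0.0532 and 0.0728).

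Among NK genes 3 of 11 tested rose and 3 fell. Nkx1-2 read 1.08 and 0.690 CPM at day 0 and 22.4 and 27.8 CPM at day 6 (log2 4.90, SE 0.246, adjusted p = 2.23e-05). Its relative Nkx1-1 read 0.154 and 0.267 CPM at day 0 and had 0 counts in both day 6 libraries, at least 9.42-fold lower against 3 counts over the group (adjusted p = 0.00707). Nkx2-9 read 4.95 and 8.41 CPM at day 0 and 0.444 and 0.465 CPM at day 6 (log2 -3.79, SE 0.339, adjusted p = 1.82e-04), and Nkx6-2, a gene of the ventral spinal cord and glia, fell by 4.72 (SE 0.295, adjusted p = 4.74e-05).

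In the Hox-like class all 3 genes tested fell. Gbx2 went from 92.3 and 112 CPM to 14.5 and 13.1 CPM (log2 -2.80, SE 0.123, adjusted p = 1.40e-05), Gbx1 by -3.52 and Meox1 by -2.27 (adjusted p = 6.95e-04 and 0.00317, the latter 0.0557 without day 0 replicate 3). Meox2 had 13 counts at day 0 and 0 at day 6 and was too low to be tested. Of 7 paired-class genes tested, Pax8, which directs thyroid and kidney development, fell by 5.75 (SE 0.333, adjusted p = 3.61e-05), Pax3, a neural crest and muscle gene, rose by 2.64 (adjusted p = 0.0106), and 5 were not called. The Pax3 call was lost without either day 0 library or day 6 replicate 2.

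All 3 paired-like genes tested rose, Prrx1, Prrx2 and Alx4, which mark limb and craniofacial mesenchyme. Prrx1 had 0 counts at day 0 and read 0.858 and 1.11 CPM at day 6, at least 44.3-fold higher (adjusted p = 5.28e-04). Prrx2 rose by 2.02 (SE 0.267, adjusted p = 9.64e-04) and Alx4 by 5.35 (SE 0.793, adjusted p = 0.00156, and 0.0722 without day 0 replicate 3). The 7 fibroblast markers summed to 6.17 to 9.05 CPM at day 0, with Col3a1, Dcn and Lum at 0, and to 10.3 to 10.6 CPM at day 6. Of the 3 fibroblast markers tested at EB day 6, 2 rose, Col1a1 and Col1a2, and 0 fell.

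Of the SINE class 3 of 5 rose. Six2, a gene of nephron progenitors, read 0.210 and 0.0314 CPM at day 0 and 13.5 and 32.4 CPM at day 6 (log2 7.59, SE 0.694, adjusted p = 1.99e-04, with 9.51 without day 0 replicate 2 and 6.82 without day 6 replicate 3). Six5 read 3.77 and 2.95 CPM at day 0 and 10.3 and 10.6 CPM at day 6 (log2 1.72, SE 0.179, adjusted p = 3.45e-04), and Six6 rose by 1.67 (adjusted p = 0.0435), a call lost without any 1 of the 4 libraries and by DESeq2. Six4 read 42.6 and 43.8 CPM against 26.3 and 24.5 CPM, a log2 difference of -0.68 that passed the adjusted p (8.07e-04) but not the fold. Vax2 read 0.420 and 0.549 CPM at day 0 and 0.163 and 0.145 CPM at day 6 (log2 -1.56, SE 0.443, adjusted p = 0.0222), and that call was lost without any 1 of the 4 libraries, with adjusted p up to 0.106, and by DESeq2. Onecut1 and Onecut2 of the CUT class were tested and not called in any comparison in which they passed the filter.

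The knockdown and EB comparisons used different libraries, so they could be set against each other. Of the 14 genes that rose with shGas41-1, 5 also rose at EB day 6 (Irx5, Lhx1, Meis2, Msx1 and Msx2), which is 5 of the 28 EB rises, and 1, Nkx2-9, fell. Over all genes, 327 of the 1444 that rose with shGas41-1 also rose at EB day 6 (22.6%, and 10.8% of all EB rises) and 316 fell (21.9%). A further 6 were tested in the EBs and not called (Meis1, Nkx2-2, Nkx2-3, Pax1, Pax6 and Pax7), and Dlx5 and Meox2 were not tested there. Of the 5 genes that fell with shGas41-1, Nkx1-2 and Six5 rose at EB day 6, Dlx4 and Vax2 fell and Pax2 was not called. Of all 438 genes that fell with shGas41-1, 74 rose at EB day 6 (16.9%) and 183 fell (41.8%). With so few homeobox genes in each direction, nothing particular to them is read from these shares.

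**Figure D5:**
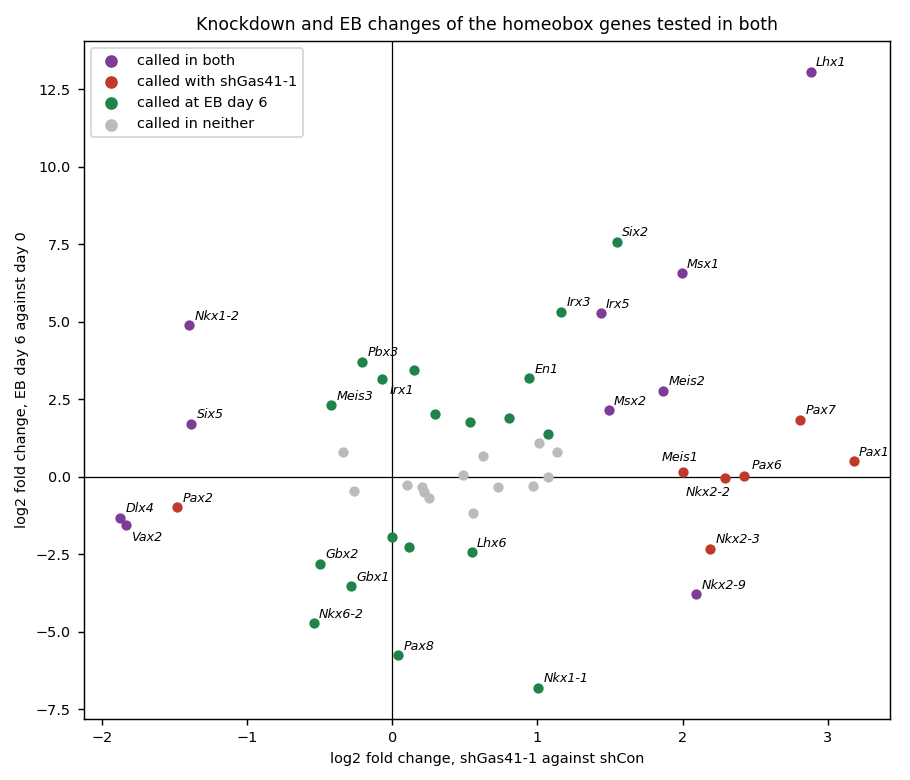
Log2 fold change at EB day 6 against day 0 (vertical axis) and with shGas41-1 against shCon (horizontal axis) of the 50 homeobox genes tested in both comparisons, coloured by call. Lhx1, Msx1, Msx2, Meis2 and Irx5 lie at the upper right, Nkx2-9 alone among genes called in both lies at the lower right, and Nkx1-2 and Six5 lie at the upper left.

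The difference between the EB change and the shGas41-1 change was tested over all 12 libraries and 19684 genes. Of 67 homeobox genes, 18 had the EB change above the knockdown change, 26.9% beside 15.4% of all genes, and 14 had it below, 20.9% beside 17.7%. For Nkx2-9 the EB change minus the shGas41-1 change was -5.84 on the log2 scale (SE 0.490, adjusted p = 3.16e-06 by edgeR). For Nkx1-2 it was 6.34 above (SE 0.455, adjusted p = 1.03e-06) and for Six5 3.15 above (SE 0.388, adjusted p = 5.28e-05). Meis1 (-1.80, adjusted p = 0.00281), Pax6 (-2.36, adjusted p = 0.00524), Nkx2-3 (-4.46, adjusted p = 0.00614) and Pax1 (-2.63, adjusted p = 0.0371) had EB changes below those with shGas41-1, while Nkx2-2 (-2.28, adjusted p = 0.0536) and Pax7 (-0.91, adjusted p = 0.502) did not pass. Among genes called in the same direction, Lhx1, Msx1 and Irx5 changed more in the EBs, by 10.24, 4.62 and 3.89 (adjusted p = 0.00983, 1.26e-04 and 0.00202). The Lhx1 difference was lost without shCon replicate 2 (adjusted p = 0.272), and that of Pax1 without shCon replicate 1, shGas41-1 replicate 2, either day 0 library or day 6 replicate 2, with adjusted p from 0.0645 to 0.134.

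For the others called in the same direction the difference did not pass both thresholds. It was 0.95 for Meis2 (95% interval 0.192 to 1.71, adjusted p = 0.0423), 0.71 for Msx2 (-0.401 to 1.82, adjusted p = 0.282), 0.60 for Dlx4 (-0.117 to 1.31, adjusted p = 0.159) and 0.33 for Vax2 (-1.06 to 1.71, adjusted p = 0.713). These intervals still hold differences of more than 1 on the log2 scale.

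A list of 82 other homeobox genes, such as Cdx, Evx, Lmx, Otx, Pou and Tlx genes, was set beside the 77. With shGas41-1 9 of 60 tested rose and 5 fell, with shGas41-2 3 of 62 rose (Evx1 and Lmx1a among them) and 1 fell (Hdx), and at EB day 6 20 of 61 rose and 12 fell. With shGas41-1 the shares of this list were 15.0% up and 8.33% down, beside 7.90% and 2.40% of all genes. With shGas41-2 they were 4.84% and 1.61%, beside 3.96% and 0.869%, so the rising share was near that of all genes. At EB day 6 they were 32.8% and 19.7%, beside 16.6% and 14.7%. The median log2 fold changes of the list were 0.25, 0.30 and 0.22 in that order. Evx1, a gene of the primitive streak, read 0.861, 1.46 and 0.732 CPM in shCon, 4.43, 12.0 and 3.03 CPM with shGas41-1, and 3.85 and 9.95 CPM with shGas41-2, with log2 fold changes of 2.73 (adjusted p = 0.00934) and 2.85 (adjusted p = 0.00905). At EB day 6 it rose by 6.20 (SE 0.329), and the largest rise of this list was that of Mixl1, 8.93 (SE 0.401). Hdx, the highly divergent homeobox gene, had log2 fold changes of -1.27 with shGas41-1 and -1.41 with shGas41-2 (adjusted p = 0.0116 and 0.0195) and 1.23 at EB day 6 (SE 0.159). With shGas41-2 the Evx1 call was lost without shGas41-2 replicate 2 (adjusted p = 0.0511), that of Lmx1a without shGas41-2 replicate 1 (0.0779), and that of Hdx without shCon replicate 2 or either shGas41-2 library, with adjusted p from 0.0509 to 0.141. With shGas41-1 the Hdx call was lost without shGas41-1 replicate 1 (0.0516). The counts of this list with shGas41-1 fell to 1 down without shCon replicate 3, and with shGas41-2 ranged from 1 up without either shGas41-2 library to 7 without shCon replicate 1.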

How the data were processed

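RNA was sequenced from 12 J1 mESC libraries, and the authors deposited raw counts per gene, made with TopHat2 2.0.10 and Bowtie2 2.1.0 on mm9 and htseq-count, according to the submitters' processing notes. Library kits were TruSeq RNA, and a strand setting for counting was not given in the sources used here. The deposited tables also hold the authors' own fold changes and p-values, which were not used, and no ChIP-seq data were analysed here. The columns named ESC in the EB table were read as EB day 0. A gene missing from a table was taken as 0 counts in its libraries, since 1657 of 1657 genes listed in 1 knockdown table only had 0 counts in shCon.

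Counts were fitted with edgeR 4.0.16 in R 4.3.3 (glmQLFit and glmQLFTest, filterByExpr with a minimum count of 10 and a minimum total of 15, TMM scaling), separately for each table and with Benjamini-Hochberg adjustment over all genes tested, and calls were made at the study's 2-fold and FDR 0.05 thresholds. The shRNAs were compared in a fit over the 8 knockdown libraries, and the EB and shGas41-1 changes in a fit over all 12. The fits were tested on simulated data. Alternatives were RLE scaling, library size alone, no filter, DESeq2 1.42.0, FDR alone, a replicate block, and leaving out each library. Levels are CPM of the library total (59224537 to 81524773 counts), and per-length levels divide by exon length in GENCODE vM1. Standard errors are the size of the log2 fold change divided by the square root of F, and 95% intervals use the t quantile at the test's total degrees of freedom.

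Members and lists were chosen with earlier results of these data known. Values in every library were given for Yeats4, for members called with both shRNAs, called in opposite directions in a knockdown and the EBs, or called down in a knockdown, for the 8 largest called EB changes and for the 5 highest mean levels, except that some genes counted are not reported here by name. Values given for other members called were chosen after they were seen.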

Additional observations from a re-analysis of the deposited data

How the results depend on the processing

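RLE scaling and library size alone kept every count within 1.5 times. The counts of the 77 genes also kept within 1.5 times with no filter, by DESeq2, at FDR alone and with the replicate number as a block. For the other homeobox genes, rises with shGas41-2 went from 3 to 5 with no filter, by DESeq2 and with the replicate block, falls with shGas41-1 from 5 to 2 with the replicate block, and falls with shGas41-2 from 1 to 2 at FDR alone. Leaving out 1 library gave 10 to 15 rises and 3 to 5 falls of the 77 genes with shGas41-1 (3 without shCon replicate 2 or shGas41-1 replicate 1), 1 to 8 and 0 to 3 with shGas41-2, 15 to 26 and 6 to 11 at EB day 6, 0 to 0 between the shRNAs, and 15 to 20 above and 13 to 16 below in the EB against the shGas41-1 change. For the other homeobox genes it gave 6 to 10 rises and 1 to 5 falls with shGas41-1, 1 to 7 and 0 to 2 with shGas41-2, and 13 to 20 and 7 to 15 at EB day 6. An arm left with 1 library was assumed to vary like the other. None of the 65 log2 fold changes called among the 77 genes turned its sign in an alternative fit, and values not called were not followed. The causes were not tested.

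The replicate numbers were not taken to pair the libraries. Same-numbered shCon and shGas41-1 libraries had correlations of 0.00503, 0.145 and -0.387 of their deviations from the group means, and not every library correlated best with its own number. The same-numbered pairs of shCon and shGas41-2 had 0.336 and 0.239, each the best match of its shGas41-2 library, and those of the EBs 0.0549. In a group of 2 libraries the deviations from the mean are exact opposites. The values of the shGas41-2 libraries are therefore not separate observations, that of the EBs is a single value, and neither decides the pairing. With the replicate block 60 of the 65 calls held, and those of Irx5, Lhx1, Nkx2-3 and Pax2 with shGas41-1 and of Six6 at EB day 6 were lost. Irx6 without day 6 replicate 2 and Nkx1-1 without day 0 replicate 3 could not be fitted. Depth limits the members near 3 counts.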
